A study of Mus musculus with 32 samples.

Results

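The genes described here are 33 of the 45616 names measured on a mouse expression array. They are 16 glycolytic enzymes (Hk1, Hk2, Gpi1, Pfkl, Pfkp, Pfkfb3, Pfkfb4, Aldoa, Aldoc, Tpi1, Gapdh, Pgk1, Pgam1, Eno1, Pkm and Ldha) and 17 other genes known as targets of hypoxia-inducible factor, HIF (Slc2a1, Pdk1, Slc16a3, Car9, Car12, Bnip3, Bnip3l, Vegfa, Adm, Egln1, Egln3, Ankrd37, P4ha1, P4ha2, Ero1l, Ndrg1 and Mxi1). They were chosen by name, and all 33 were found through the RefSeq identifiers of 60 probes. For the 17 genes with several probes the one with the highest mean over all arrays was used. Each level is the log2 of the processed signal relative to the 75th percentile of its array, so that 0 marks a gene as bright as that percentile. Levels of different genes come from different probes and are not set against each other.

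HIF is a transcription factor whose alpha subunit is hydroxylated by the Egln enzymes when oxygen is present, then bound by the Vhl protein and degraded. When oxygen is short the subunit persists, and the cell transcribes genes for glucose uptake, glycolysis, lactate export, control of pH, new vessels and the removal of mitochondria. Solid tumors often switch on the same genes, since they outgrow their blood supply, and many tumor cells run glycolysis at a high rate even with oxygen present. Skeletal muscle is also rich in glycolytic enzymes, partly through isozymes of its own.

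The study implanted cells of MCG 101, a transplantable mouse sarcoma, in wild-type mice and in mice lacking EP2, a receptor for prostaglandin E2 encoded by Ptger2. RNA of the tumor and of its stroma was hybridised to 32 one-colour arrays. Each of the 4 groups (stroma or tumor, of wild-type or of EP2 knockout hosts) had 8 arrays, 4 labelled female and 4 male. The same tumor line went into both kinds of host, so the label refers to the host and not to the implanted cells. How the stroma was separated from the tumor, the strain, the age and the time after implantation are not given in the sources used here. Oxygen was not among the values used here.

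Over the 32 arrays the signal's 75th percentile lay between 584 and 1727, no spot was saturated, and between 50% and 76.3% of spots were well above background. All members but Car12 were well above background on all 32 arrays, and Car12 on 29 of them. The number of arrays limits the precision. Ptger2 itself was not lower in the groups labelled knockout: in stroma its median level was -3.76 on knockout arrays and -4.83 on wild-type arrays, and in tumor -4.33 on knockout arrays and -5.31 on wild-type arrays. Its differences missed the test (0.87, SE 0.38, adjusted p = 0.159 in stroma, and 1.03, SE 0.41, adjusted p = 0.98 in tumor, limma). Which part of the gene was deleted is not given in the sources used here, so this probe does not check the labels, and genotypes are named below as labelled. On the first principal component of all genes the stroma arrays labelled wild-type 65 and 82 lay at -68.2 and -113.4, among the 16 tumor arrays (lowest -160.7, highest -31.2); the remaining 14 stroma arrays had positive scores from 22 to 227.2. On 5 arrays (wild-type stroma 9, knockout stroma 95 and 99, knockout tumor 95 and 99) Ddx3y and Xist went against the sex label. Results that rest on these arrays are given with and without them.

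Most of the 33 genes were lower in stroma than in tumor. In the fit of all 32 arrays 21 members were lower in stroma and 5 were higher at a Benjamini-Hochberg adjusted p under 0.05 over all genes tested, while 7 did not pass (limma, 16 arrays a tissue). The labels do not say whether each array comes from a separate animal, so p-values measure the spread between these samples. The background was wide, since 36.8% of the 27120 genes tested were lower in stroma and 26.0% were higher. The median difference was -0.61 over the members and -0.13 over all genes. Among the other HIF targets 12 of 17 were lower, 1 was higher (Egln1) and 4 did not pass (Bnip3, Bnip3l, Adm and Ndrg1), with a median of -0.98. The glycolytic enzymes were more mixed, with 9 of 16 lower, 4 higher (Hk2, Pfkfb3, Pfkfb4 and Aldoa), 3 that did not pass (Gpi1, Gapdh and Ldha) and a median of -0.45. In bulk tissue, fewer cells of a type and less RNA per cell cannot be told apart. Without wild-type stroma 65 and 82 the counts were 20 lower and 6 higher, where 65.2% of 27066 genes were called in either direction. Of the 21 lower members 17 were lower on each of the 6 slides, and of the 5 higher members 4 were higher on each slide. The share of all called genes that kept 1 sign on the 6 slides was not counted.

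**Figure D1:**
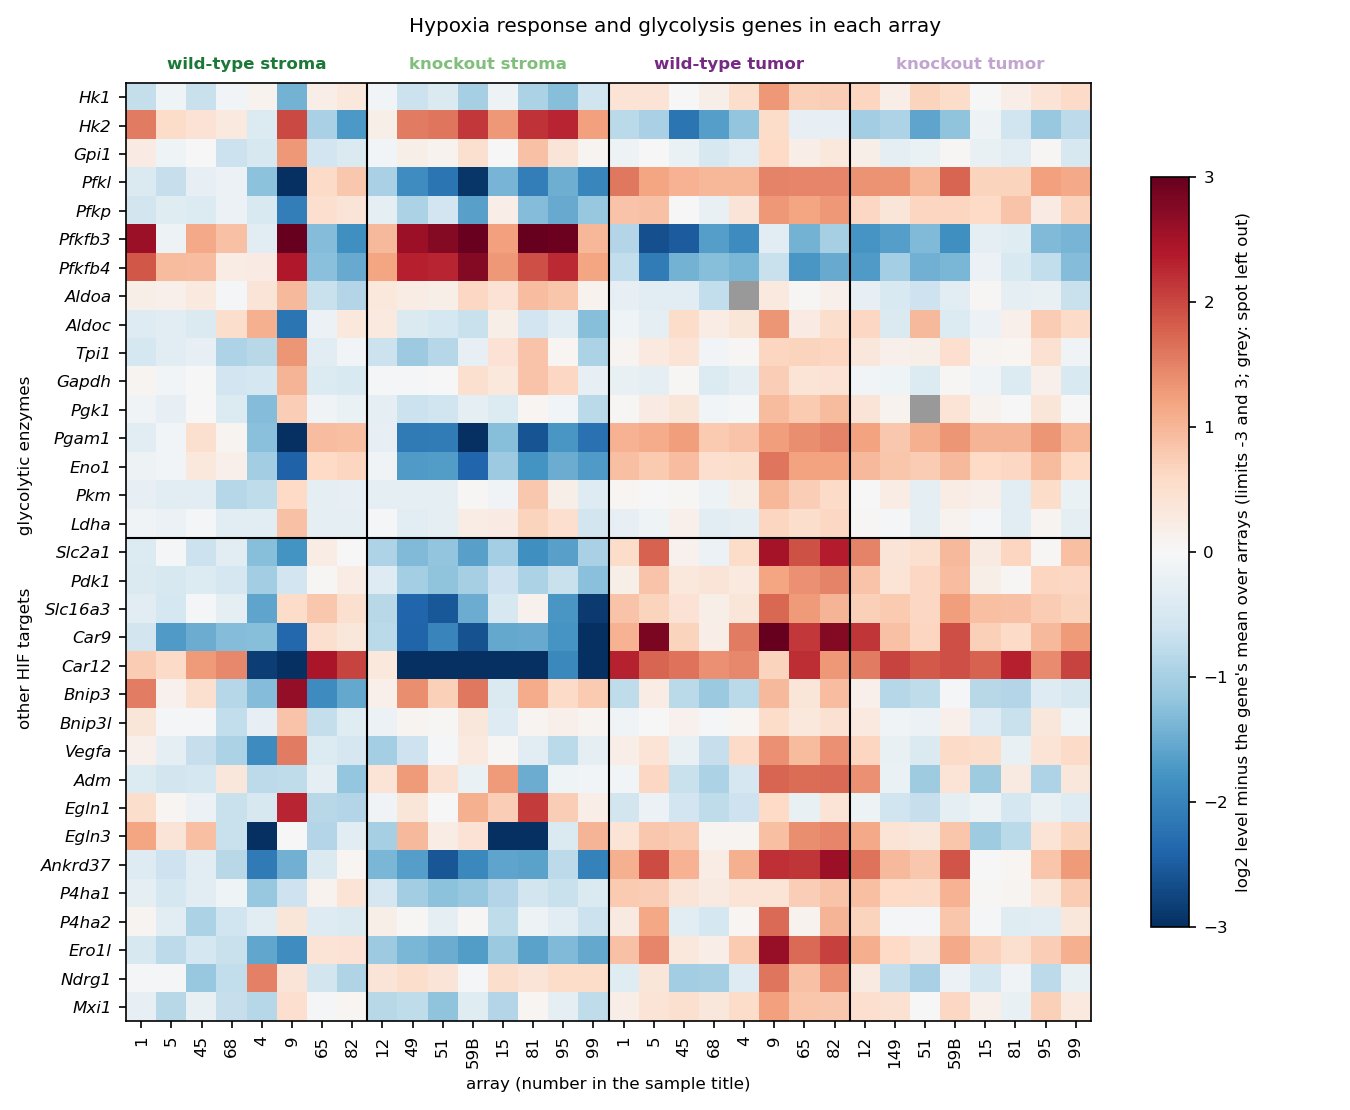
Heat map of the log2 level of each of the 33 genes (rows) on each of the 32 arrays (columns, numbered as in the sample titles), minus the gene's mean over all arrays; red is above and blue below the mean, and 2 grey cells are spots left out as outliers. Car9, Ero1l, Pfkl, Pgam1 and Eno1 are red across the tumor arrays and blue across most stroma arrays, Pfkfb3, Pfkfb4 and Hk2 run the other way, and the stroma arrays labelled wild-type 65 and 82 have the tumor colour for Pfkl, Pgam1 and Eno1.

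The composition of the samples moved with this comparison. All 15 skeletal muscle markers were higher in stroma (median difference 6.29), as were 7 of 8 fat cell markers (4.53), 8 of 8 endothelial markers (1.36) and 5 of 7 macrophage markers (1.59). Of 6 fibroblast markers 3 were higher and 1 was lower, none of 5 neutrophil markers passed, and of 5 keratinocyte markers 1 was tested and did not pass. All 12 cell cycle genes were lower in stroma (median -2.65). The mean level of the muscle markers ran from 0.62 (wild-type stroma 82) to 8.51 (wild-type stroma 9) in stroma and from -4.27 to 5.64 in tumor. That of the cell cycle genes ran from -4.67 to 3.36 in stroma and from 2.47 to 3.49 in tumor. Between 14 and 15 muscle markers were well above background on the stroma arrays and between 9 and 15 on the tumor arrays, and none of them was below background on all arrays of a tissue. The part of muscle, fat and dividing cells in the differences of the 33 genes was not tested.

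The core of the HIF response element is the sequence ACGTG or GCGTG. It was looked for on both strands in the 250 bases before each annotated transcription start, with overlapping matches counted once. RefSeq promoters of the GRCm38.p6 build were matched for 31 of the 33 genes. At least 1 start held a match in 28 of these 31 (90.3%), in 14 of 16 glycolytic enzymes and in 14 of 15 other HIF targets, against 11226 of 27025 genes (41.5%) over the whole table. The core is short and holds CG, so a match is a description of the letters and not a site of binding. Below are 6 of these windows, 5′ to 3′, with each match in capitals. Pgk1, Slc2a1, Car9 and Ankrd37 were lower in stroma, Pfkfb4 was higher, and Bnip3 did not pass.
Pgk1, chrX:106186850-106187099, plus strand: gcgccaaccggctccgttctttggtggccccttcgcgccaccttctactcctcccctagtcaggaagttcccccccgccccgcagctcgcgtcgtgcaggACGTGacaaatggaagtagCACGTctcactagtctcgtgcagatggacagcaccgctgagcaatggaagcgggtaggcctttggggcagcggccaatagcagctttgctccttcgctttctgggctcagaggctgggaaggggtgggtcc
Slc2a1, chr4:119108495-119108744, plus strand: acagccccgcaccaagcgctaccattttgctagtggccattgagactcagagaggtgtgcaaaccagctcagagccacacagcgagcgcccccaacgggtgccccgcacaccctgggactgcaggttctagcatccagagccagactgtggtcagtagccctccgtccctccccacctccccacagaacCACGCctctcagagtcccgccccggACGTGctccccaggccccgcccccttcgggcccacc
Car9, chr4:43506776-43507025, plus strand: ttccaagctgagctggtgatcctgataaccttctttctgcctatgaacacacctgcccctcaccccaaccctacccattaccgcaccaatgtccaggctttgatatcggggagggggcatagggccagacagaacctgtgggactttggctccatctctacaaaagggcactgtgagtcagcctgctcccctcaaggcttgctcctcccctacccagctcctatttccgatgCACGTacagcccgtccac
Ankrd37, chr8:45999851-46000100, minus strand: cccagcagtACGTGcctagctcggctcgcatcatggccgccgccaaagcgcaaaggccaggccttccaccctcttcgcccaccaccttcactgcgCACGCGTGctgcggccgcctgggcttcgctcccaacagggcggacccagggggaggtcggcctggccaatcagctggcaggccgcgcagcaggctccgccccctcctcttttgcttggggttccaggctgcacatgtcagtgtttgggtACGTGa
Bnip3, chr7:138909507-138909756, minus strand: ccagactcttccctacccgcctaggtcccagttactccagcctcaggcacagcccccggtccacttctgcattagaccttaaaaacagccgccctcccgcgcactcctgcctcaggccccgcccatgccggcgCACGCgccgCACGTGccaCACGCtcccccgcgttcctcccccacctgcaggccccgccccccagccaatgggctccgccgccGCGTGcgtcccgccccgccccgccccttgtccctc
Pfkfb4, chr9:108991652-108991901, plus strand: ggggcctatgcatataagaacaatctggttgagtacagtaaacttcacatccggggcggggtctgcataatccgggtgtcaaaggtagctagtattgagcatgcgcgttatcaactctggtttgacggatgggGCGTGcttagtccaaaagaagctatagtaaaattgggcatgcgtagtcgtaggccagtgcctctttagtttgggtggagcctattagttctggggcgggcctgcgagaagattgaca
The number of separate matches was 2 for Pgk1 and Slc2a1, 1 for Car9 and Pfkfb4, 3 for Ankrd37 and 4 for Bnip3. Genes with a match thus stood on both sides of the comparison of the tissues, and among those that did not pass.

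Glucose enters the cell through transporters and is trapped by hexokinase. Slc2a1, the widely expressed glucose transporter that HIF induces, was lower in stroma. Its level (lowest, median, highest) was 0.89, 2.30 and 2.90 on wild-type stroma arrays, 0.84, 1.43 and 1.75 on knockout stroma arrays, 2.49, 3.83 and 5.17 in wild-type tumor and 2.70, 3.24 and 4.16 in knockout tumor. All 16 stroma arrays lay below the tumor median, and 3 of them (wild-type 5, 65 and 82) lay above the lowest tumor array. The difference was -1.85 (SE 0.22, 3.60-fold lower, adjusted p = 1.47e-07). Hk1, the hexokinase of most tissues, was lower as well (-0.94, SE 0.15, adjusted p = 7.81e-06), with 1.67 to 3.40 in stroma and 3.07 to 4.37 in tumor.

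Hk2, the hexokinase of muscle and fat that is also a HIF target in tumors, ran the other way. On wild-type stroma arrays it stood at 0.78, 2.87 and 4.47, and on knockout stroma arrays at 2.67, 4.08 and 4.78. In tumor it stood at 0.32, 1.60 and 3.04 (wild type) and at 0.92, 1.52 and 2.36 (knockout). In knockout hosts every stroma array was above every tumor array, while in wild-type hosts the groups overlapped. Over all arrays Hk2 was 3.41-fold higher in stroma (1.77, SE 0.27, adjusted p = 3.71e-06).

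The committed step of glycolysis is the phosphorylation of fructose phosphate by phosphofructokinase. Its liver-type subunit Pfkl was 5.33-fold lower in stroma (-2.41, SE 0.26, adjusted p = 4.62e-08). On wild-type stroma arrays Pfkl ran from -1.76 through 0.96 to 2.12, and on knockout stroma arrays from -1.62 through -0.60 to 0.33, against 2.29, 2.63 and 2.88 in wild-type tumor and 1.97, 2.49 and 3.04 in knockout tumor. Stroma and tumor did not overlap in either kind of host. The platelet-type subunit Pfkp was 2.44-fold lower (-1.29, SE 0.21, adjusted p = 9.51e-06), from -0.46 to 2.11 in stroma and from 1.39 to 2.90 in tumor. The muscle-type subunit Pfkm, not among the 33 genes, was higher in stroma (3.44, SE 0.42, adjusted p = 2.02e-07).

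Pfkfb3 and Pfkfb4 make and break down the sugar phosphate that activates phosphofructokinase. Both were higher in stroma, by the widest margins among the members that rose. Pfkfb3 stood at 0.77, 2.96 and 6.16 on wild-type stroma arrays, 3.59, 5.28 and 5.96 on knockout stroma arrays, -0.03, 1.07 and 2.28 in wild-type tumor and 0.78, 1.25 and 2.35 in knockout tumor. Its difference was 2.78 (SE 0.40, 6.88-fold higher, adjusted p = 1.36e-06). Pfkfb4 stood at 0.60, 2.71 and 4.51 on wild-type stroma arrays, 3.30, 4.20 and 4.88 on knockout stroma arrays, 0.01, 0.72 and 1.46 in wild-type tumor and 0.42, 0.96 and 1.93 in knockout tumor. Its difference was 2.38 (SE 0.28, 5.22-fold higher, adjusted p = 1.13e-07). For both genes the lowest stroma array was the one labelled wild-type 82, and every knockout stroma array lay above every knockout tumor array.

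The aldolases cleave the resulting sugar. Aldoa, the aldolase of muscle and most other tissues, was 1.40-fold higher in stroma (0.49, SE 0.15, adjusted p = 0.00491, with the value of wild-type tumor 4 left out as an outlier spot). It ran from 7.56 (wild-type stroma 82) to 9.40 (wild-type stroma 9) in stroma and from 7.68 to 8.73 in tumor. Aldoc, the aldolase of the brain, was 1.53-fold lower in stroma (-0.61, SE 0.24, adjusted p = 0.0272), and lower on 4 of the 6 slides. The call was lost without the 5 arrays that went against the sex label (-0.29, adjusted p = 0.236). It was also lost under scaling by bright probes (-0.5, adjusted p = 0.0855). With slide or replicate number as a fixed block Aldoc did not pass either (-0.56, adjusted p = 0.0703, and -0.66, adjusted p = 0.0564). Gpi1, which converts glucose phosphate to fructose phosphate, did not pass (0.17, SE 0.15, adjusted p = 0.352) with quartile scaling and was higher in stroma under quantile scaling (0.36, adjusted p = 0.00495).

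In the later steps of the pathway the members diverged from each other. Pgam1, the phosphoglycerate mutase of tissues other than muscle, was 4.75-fold lower in stroma (-2.25, SE 0.30, adjusted p = 6.04e-07). Pgam1 stood at 1.94, 5.28 and 6.21 on wild-type stroma arrays, 2.21, 3.16 and 5.02 on knockout stroma arrays, 6.06, 6.46 and 6.77 in wild-type tumor and 6.09, 6.32 and 6.61 in knockout tumor. The tumor arrays stayed within a narrow band, while the stroma arrays were spread widely below it, with only wild-type stroma 65 and 82 reaching it. Eno1, the enolase of most tissues, was 3.35-fold lower (-1.74, SE 0.23, adjusted p = 5.17e-07). Eno1 stood at 3.89, 6.35 and 6.96 on wild-type stroma arrays, 3.94, 4.63 and 6.22 on knockout stroma arrays, 6.82, 7.23 and 7.92 in wild-type tumor and 6.91, 7.11 and 7.30 in knockout tumor.

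The other lower enzymes moved little. Pgk1, which makes ATP from bisphosphoglycerate, was 1.51-fold lower (-0.60, SE 0.15, adjusted p = 0.00123), from 6.59 to 8.64 in stroma and from 7.81 to 8.85 in tumor, with the outlier spot of knockout tumor 51 left out. Tpi1, triose phosphate isomerase, was 1.47-fold lower (-0.55, SE 0.17, adjusted p = 0.00717). The Tpi1 call rested on the probe: the other probes gave -0.27 and -0.01, and the mean of all probes -0.27 (adjusted p = 0.351). Pkm, pyruvate kinase, was 1.27-fold lower (-0.35, SE 0.13, adjusted p = 0.027). That call rested on the probe and the scaling: the other Pkm probe gave a difference of 0.58, the mean of both probes one of 0.12 (adjusted p = 0.648), and quantile scaling one of -0.13 (adjusted p = 0.247). It was also lost without knockout stroma 99 (-0.30, adjusted p = 0.0501), knockout tumor 95 (-0.30, adjusted p = 0.0503) or wild-type stroma 65 and 82 (-0.32, adjusted p = 0.0531). Gapdh, often used as a reference gene, did not pass (0.12, SE 0.15, adjusted p = 0.474) with quartile scaling. It was higher in stroma under quantile scaling (0.23, adjusted p = 0.00894), with normexp (0.24, adjusted p = 0.00213) and with the mean of all probes (0.61, adjusted p = 0.0191). All 6 Gapdh probes had positive differences, from 0.12 for the one used to 1.15 for the dimmest.

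**Figure D2:**
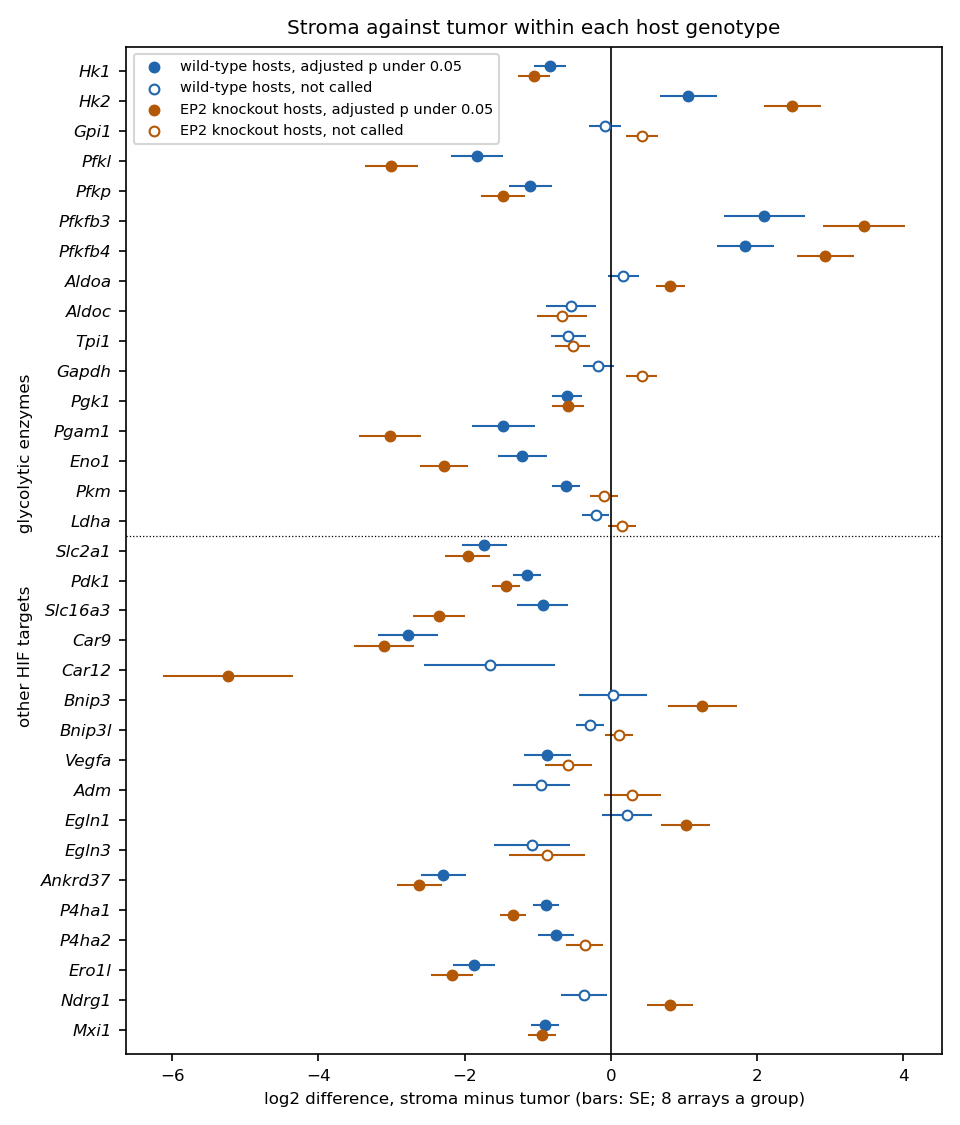
Log2 difference between stroma and tumor (horizontal axis, bars SE, 8 arrays a group) of each of the 33 genes (vertical axis) in wild-type hosts (blue) and EP2 knockout hosts (orange); filled points passed an adjusted p under 0.05 and open points did not. In both hosts Car9, Ankrd37, Ero1l, Slc2a1 and Pfkl lie far to the left of 0 and Pfkfb3, Pfkfb4 and Hk2 to the right, while Ldha, Gapdh, Gpi1 and Bnip3l lie near 0.

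Pyruvate is turned into lactate or sent to the mitochondrion. Ldha, the lactate dehydrogenase subunit that favours lactate, stood at 7.32, 7.44 and 8.54 on wild-type stroma arrays, 7.10, 7.74 and 8.33 on knockout stroma arrays, 7.34, 7.67 and 8.31 in wild-type tumor and 7.33, 7.60 and 7.77 in knockout tumor. The 4 groups overlapped, and the difference was -0.03 (SE 0.13, adjusted p = 0.871). Pdk1, the kinase that shuts off pyruvate dehydrogenase, was 2.44-fold lower in stroma (-1.29, SE 0.14, adjusted p = 4.80e-08). Pdk1 ran from 0.98 to 2.46 in stroma and from 2.27 to 3.74 in tumor, and all 16 stroma arrays lay below the tumor median. Slc16a3, the lactate exporter that HIF induces, stood at 3.82, 5.22 and 6.20 on wild-type stroma arrays, 2.53, 3.77 and 5.52 on knockout stroma arrays, 5.57, 6.16 and 7.11 in wild-type tumor and 6.01, 6.17 and 6.64 in knockout tumor. It was 3.12-fold lower in stroma (-1.64, SE 0.25, adjusted p = 2.96e-06).

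The carbonic anhydrases at the cell surface help to remove acid, and Car9 is among the genes most tightly tied to HIF. Car9 stood at -2.71, -1.63 and 0.12 on wild-type stroma arrays, -3.35, -2.23 and -1.16 on knockout stroma arrays, -0.14, 1.48 and 2.80 in wild-type tumor and 0.22, 0.58 and 1.80 in knockout tumor. Only wild-type stroma 65 and 82 reached the lowest tumor array. Car9 was 7.63-fold lower in stroma (-2.93, SE 0.29, adjusted p = 3.21e-08). Over all arrays Car12 was 10.9-fold lower (-3.45, SE 0.63, adjusted p = 3.22e-05). It was well above background on 13 of 16 stroma arrays and all 16 tumor arrays. Tested within each kind of host, Car12 was called lower in knockout hosts alone. Its mean level there was -4.48 in stroma and 0.75 in tumor, against -1.2 and 0.46 in wild-type hosts. The stroma arrays of Car12 ran from -7.48 (wild-type stroma 9) to 1.33 (wild-type stroma 65), a range that held all the tumor arrays (-0.46 to 1.21).

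Bnip3 and Bnip3l sit on the outer membrane of mitochondria and mark them for removal. Neither passed: Bnip3 gave 0.64 (SE 0.33, adjusted p = 0.0981) and Bnip3l gave -0.09 (SE 0.14, adjusted p = 0.573). Bnip3 had the highest stroma array at 7.79 (wild-type stroma 9) and the lowest at 3.28 (wild-type stroma 65), against 4.05 to 6.13 in tumor. Bnip3 was higher in stroma without wild-type stroma 65 (0.75, adjusted p = 0.0489) and without both wild-type stroma 65 and 82 (0.94, adjusted p = 0.0128). It was also higher under other scalings: quantile (0.72, adjusted p = 0.0372), normexp and quantile (0.77, adjusted p = 0.0268) and bright probes (0.75, adjusted p = 0.0434). Among the secreted factors Vegfa, which drives the growth of vessels, was 1.65-fold lower (-0.72, SE 0.23, adjusted p = 0.00777). Vegfa ran from 0.46 (wild-type stroma 4) to 3.91 (wild-type stroma 9) in stroma and from 1.66 to 3.73 in tumor. Of the 4 Vegfa probes 3 had the same sign, and the dimmest gave 0.28. Adm, the vasodilator adrenomedullin, did not pass (-0.33, SE 0.28, adjusted p = 0.312).

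The genes that sense oxygen or limit HIF were split. Egln1, the main prolyl hydroxylase that marks HIF for degradation, was 1.53-fold higher in stroma (0.62, SE 0.24, adjusted p = 0.0288). Leaving out knockout stroma 81 gave 0.52 (adjusted p = 0.0556), knockout stroma 59B 0.56 (adjusted p = 0.0514) and wild-type tumor 4 0.56 (adjusted p = 0.0501). Egln3, the related hydroxylase that HIF itself induces, was 1.97-fold lower (-0.98, SE 0.37, adjusted p = 0.0223), with a wide range in stroma from -1.51 to 2.95. Ankrd37, an ankyrin repeat gene that HIF induces, had the smallest p of the 33 genes. Ankrd37 stood at -1.14, 0.45 and 1.05 on wild-type stroma arrays, -1.58, -0.65 and 0.19 on knockout stroma arrays, 1.21, 2.49 and 3.55 in wild-type tumor and 0.96, 1.88 and 2.87 in knockout tumor. It was 5.49-fold lower in stroma (-2.46, SE 0.22, adjusted p = 2.17e-08), with no overlap of stroma and tumor within either kind of host.

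Genes of collagen and protein folding come next. P4ha1 and P4ha2, the catalytic subunits of the prolyl hydroxylase that stabilises collagen, gave -1.12 (SE 0.13, adjusted p = 1.01e-07) and -0.56 (SE 0.18, adjusted p = 0.00739), and in knockout hosts alone P4ha2 did not pass (-0.36, SE 0.25, adjusted p = 0.214). Ero1l, the oxidase that forms disulfide bonds in the endoplasmic reticulum, stood at 0.61, 1.87 and 2.91 on wild-type stroma arrays, 0.80, 1.05 and 1.38 on knockout stroma arrays, 2.67, 3.65 and 5.08 in wild-type tumor and 2.86, 3.19 and 3.62 in knockout tumor. It was 4.06-fold lower (-2.02, SE 0.21, adjusted p = 3.78e-08), and all 16 stroma arrays lay below the tumor median. Mxi1, which opposes Myc, was 1.89-fold lower (-0.92, SE 0.13, adjusted p = 1.90e-06). Ndrg1, a stress gene induced by hypoxia, did not pass (0.22, SE 0.22, adjusted p = 0.395).

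**Figure D3:**
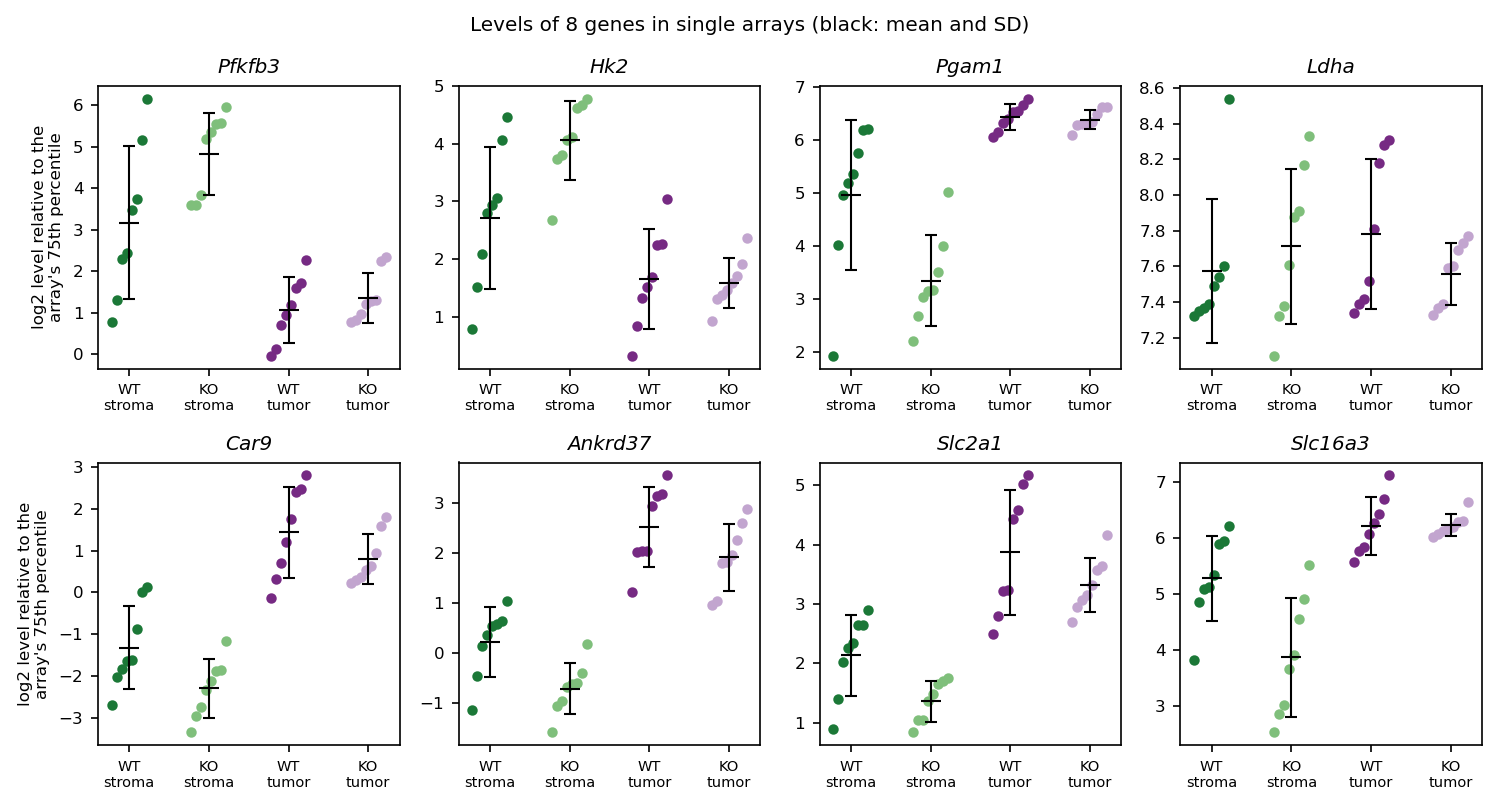
Log2 levels relative to the array's 75th percentile (vertical axes) of 8 genes on single arrays of the 4 groups (WT wild-type and KO knockout hosts; points are arrays, black bars the mean and SD, n = 8). Pgam1 and Slc16a3 are tightly grouped in knockout tumor and spread in stroma, Car9, Ankrd37 and Slc2a1 are spread within wild-type tumor, and Ldha overlaps in all groups.

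Related genes of the pathway were taken from 3 lists. Of 10 genes of the HIF machinery tested, 4 were higher and 2 were lower in stroma, with a median of 0.34. Epas1, which encodes the HIF alpha subunit prominent in endothelium (2.65, SE 0.26, adjusted p = 3.27e-08), and Hif1an, the asparagine hydroxylase that restrains HIF (1.77, SE 0.22, adjusted p = 2.71e-07), were higher. Hif1a itself was lower (-0.87, SE 0.17, adjusted p = 6.67e-05). Of 18 other isozymes and pyruvate genes 11 were higher and 4 lower, with a median of 1.09, led by Pdk2 (5.47, SE 0.60), Pgam2 (6.45, SE 0.74) and Slc2a4 (5.73, SE 0.66). Pgam2 and Slc2a4 are the mutase and the insulin-dependent glucose transporter of muscle. Of 22 further HIF targets 9 were higher and 10 lower, with a median of -0.02; Ak4 (-1.78, SE 0.20) and Kdm3a (-0.89, SE 0.10) were lower and Ppp1r3c (4.79, SE 0.60), a glycogen gene, was higher.

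Within each kind of host the comparison used separate arrays. In wild-type hosts 17 members were lower in stroma and 3 were higher, where 19.8% and 11.8% of all genes were, and in knockout hosts 15 were lower and 7 higher, where 32.3% and 27.4% of all genes were. The sign was the same in both hosts for 27 of 33 members. Called lower in both were 14 genes (Slc2a1, Hk1, Pfkl, Pfkp, Pgk1, Pgam1, Eno1, Pdk1, Slc16a3, Car9, Ankrd37, P4ha1, Ero1l and Mxi1), and called higher in both were 3 (Hk2, Pfkfb3 and Pfkfb4). Called lower in wild-type hosts alone were 3 (Pkm, Vegfa and P4ha2), and in knockout hosts alone 1 (Car12). Called higher in knockout hosts alone were 4 (Aldoa, Bnip3, Egln1 and Ndrg1), and in wild-type hosts alone 0. Stroma and tumor did not overlap for 2 members in wild-type hosts (Pfkl and Ankrd37) and for 18 in knockout hosts, 13 of them lower and 5 higher. Over all genes the groups did not overlap for 0.896% in wild-type hosts (0.785% lower and 0.111% higher) and for 31.3% in knockout hosts (18.1% lower and 13.1% higher). The wild-type stroma group held arrays 65 and 82, which for 20 and 23 of the 26 called members lay inside the range of the tumor arrays; the other 14 stroma arrays did so for between 4 and 8 members. Without those arrays 16 members were lower and 4 higher in wild-type hosts, while the share of all genes called in either direction was 48.4%.

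The difference between hosts was tested directly as genotype by tissue, and no member passed (0% of all genes did). At an unadjusted p under 0.05 there were 9 members, and 21% of all genes. The members with the smallest p whose interaction was negative were Slc16a3 (-1.42, SE 0.50, adjusted p = 0.145), Car12 (-3.57, SE 1.25, adjusted p = 0.145) and Pgam1 (-1.55, SE 0.60, adjusted p = 0.165). The positive ones were Ndrg1 (1.18, SE 0.44, adjusted p = 0.153), Hk2 (1.42, SE 0.54, adjusted p = 0.161) and Adm (1.24, SE 0.56, adjusted p = 0.208). A single array changed this count: without wild-type stroma 9 there were 12 members and 20.1% of all genes, and without wild-type stroma 4 there were 2 members and 8.32% of all genes. Without wild-type stroma 65 and 82 there were 0.

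The comparison of knockout with wild-type hosts asks what loss of EP2 in the host goes with in each tissue. It shares its arrays with the comparison of stroma and tumor. In stroma no member passed, and neither did any other gene (0% of 24782), although 14 members and 28.5% of all genes had an unadjusted p under 0.05. Lower in knockout stroma with the smallest p were Slc16a3 (-1.41, SE 0.45, adjusted p = 0.125), Ankrd37 (-0.93, SE 0.30, adjusted p = 0.125) and Eno1 (-1.24, SE 0.42, adjusted p = 0.126). On the higher side were Hk2 (1.34, SE 0.46, adjusted p = 0.126), Pfkfb4 (1.42, SE 0.49, adjusted p = 0.126) and Pfkfb3 (1.66, SE 0.70, adjusted p = 0.151). The other members ranged from -3.29 (Car12) to 0.84 (Bnip3). All 8 knockout arrays lay below the wild-type median for 8 members (Slc2a1, Pfkl, Pgam1, Eno1, Car12, Ankrd37, P4ha1 and Ero1l) and above it for 5 (Gpi1, Pfkfb3, Pfkfb4, Egln1 and Ndrg1), where 19.7% and 17.5% of all genes did so.

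The stroma result rested on single arrays of the wild-type group. Its arrays labelled male were 4, 9, 65 and 82. The fit gave each sex label its own mean, with equal weight in the group. Without wild-type stroma 9 there were 18 members that passed, 10 lower and 8 higher in knockout stroma, against 34.3% of all genes, with Pfkfb4 at 1.82 (SE 0.34, adjusted p = 0.00612) and Pgam1 at -2.04 (SE 0.43, adjusted p = 0.00671). Without wild-type stroma 4 there were 7 members, against 20.3% of all genes. Without the 3 stroma arrays against the sex label, 1 of which is wild-type stroma 9, there were 13, against 23.8% of all genes. Without wild-type stroma 65 and 82 there were 0, 1 member had an unadjusted p under 0.05, and Pfkfb4 stood at 0.74 (SE 0.40) and Slc16a3 at -1.12 (SE 0.50). That fit had arrays 4 and 9 alone for male wild-type stroma. Leaving out array 9 as well, a choice made after seeing the data, left array 4 alone there. Counts of this last fit are therefore not given. The median difference over members in it was 0.14, against -0.18 in the main fit. Over all genes the medians of these 2 fits were 0 and 0.09. Array weights, which lower the influence of arrays far from their group, gave 28 members, but also 71.6% of all genes.

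Marker levels were also set beside the host groups of the stroma. The mean level of the 12 cell cycle genes had a median of 2.27 in wild-type and -0.22 in knockout stroma, and that of the 15 muscle markers 6.58 and 7.29. No marker of either list passed between genotypes, and their median differences were -1.50 and 1.71. The part of these cells in the genotype differences of the 33 genes was not tested. Within slides, where the genotypes shared 5 slides in stroma with 1 to 3 arrays each, the members did not keep 1 sign. On slides 2, 3, 5 and 6 the sign was the same for 18 members, but 15 of these had the opposite sign on slide 4, which held knockout stroma 12 and wild-type stroma 9. Pgam1 was at -3.04 on slide 2 and 3.07 on slide 4, Eno1 at -2.27 and 2.33, and Hk2 at 2.59 and -1.80. Adm (positive) and Slc16a3 (negative) were the 2 members with 1 sign on all 5 slides. Signs within slides were counted for the members only and not for all genes.

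**Figure D4:**
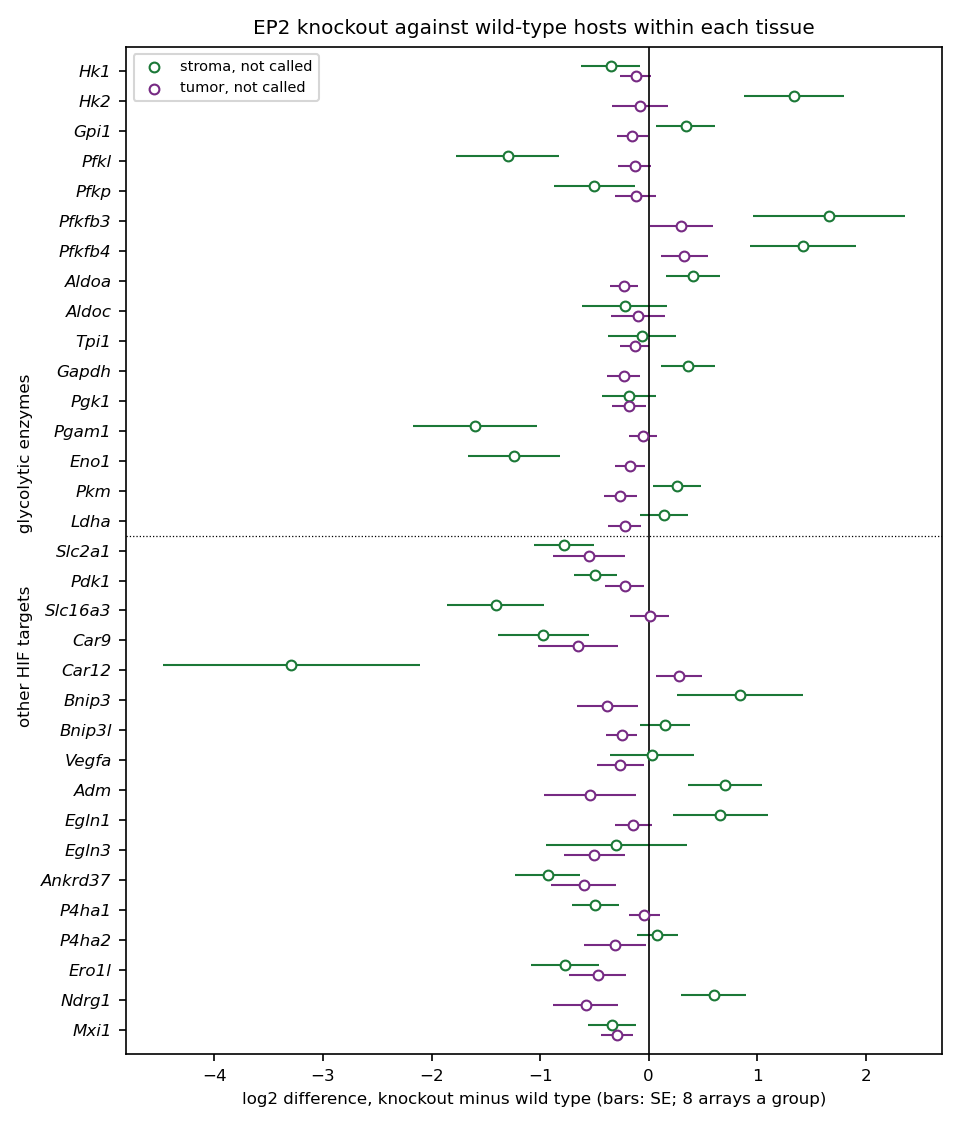
Log2 difference between EP2 knockout and wild-type hosts (horizontal axis, bars SE, 8 arrays a group) of each of the 33 genes in stroma (green) and tumor (purple); all points are open because no gene passed an adjusted p under 0.05. The stroma differences run from -3.29 (Car12) to 1.66 (Pfkfb3), and the tumor differences lie between -0.65 (Car9) and 0.33 (Pfkfb4).

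In tumor the host genotype went with smaller differences. No member passed and none had an unadjusted p under 0.05, where 0% and 3.53% of the 23749 genes did. The signs leaned one way, with 29 members lower and 4 higher in knockout hosts and a median of -0.22, against -0.03 over all genes. On the lower side the smallest p belonged to Ankrd37 (-0.60, SE 0.30), Mxi1 (-0.29, SE 0.15) and Ndrg1 (-0.58, SE 0.30). The positive members with the smallest p were Pfkfb4 (0.33, SE 0.22), Car12 (0.28, SE 0.21) and Pfkfb3 (0.30, SE 0.29). With the mean of all probes the sign turned for Pfkfb4 (-0.32) and Pfkfb3 (-0.14). All 6 had an adjusted p of 0.98. Members share arrays and are not independent, so the lean is a description. Within the 3 slides that held both genotypes the median difference over members was -0.10, 0.33 and -0.27.

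That lean came with a few wild-type tumors in which most members were high. On wild-type tumor 9 the levels of 31 of 33 members were above the median of the 16 tumor arrays, and 21 were the highest of all tumors. On wild-type tumor 82 the number above the median was 31 and on wild-type tumor 65 it was 30, followed by knockout tumor 59B with 27 and knockout tumor 12 with 26. At the other end, 1 member was above the median on wild-type tumor 68, where 13 were the lowest of all tumors. The shares of all genes above the median, highest or lowest on these arrays were not counted, so these counts have no background beside them. Relative to the tumor median, the other HIF targets of wild-type tumor 9 were higher by a median of 0.94 and its glycolytic enzymes by 0.73. The 75th percentile by which its levels were scaled was 584.2, the lowest of all arrays. The glycolytic enzymes of single tumors were not examined under another scaling, and the part of the scaling in these levels was not tested. Neutrophil markers stood apart on the same 3 wild-type tumors: the mean level of 5 markers was 3.66, 3.59 and 4.20 on wild-type tumors 9, 65 and 82, and between -0.11 and 1.69 on the other 13 tumors. Their median difference between knockout and wild-type tumor was -1.58, and none of the 5 passed. All 5 markers were well above background on all 16 tumor arrays. Wild-type tumors 9, 65 and 82 were labelled male, as was wild-type tumor 4, where the mean of the neutrophil markers was 0.48. On the wild-type tumors labelled female it ran from 0.23 to 1.69. Whether sex had a part was not tested. The 15 muscle markers had a median difference of 1.75 between knockout and wild-type tumor, and none of them passed. Their mean level was 5.64 and 4.20 on knockout tumors 15 and 81, where 4 and 6 members were the lowest of all tumors. It was 4.22 on wild-type tumor 1, where 0 members were the lowest. The part of neutrophils and of muscle in the levels of the 33 genes was not tested.

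Car9 shows the pattern. It stood at 2.80, 2.47, 2.41 and 1.76 on wild-type tumors 9, 5, 82 and 65 and at 1.80 and 1.59 on knockout tumors 12 and 59B. On the other 10 tumors it lay between -0.14 and 1.20. Slc2a1 stood at 5.17, 5.03, 4.59 and 4.44 on wild-type tumors 9, 82, 65 and 5 and at 4.16 on knockout tumor 12, while the other 11 tumors lay between 2.49 and 3.65. Ankrd37 and Ero1l had their highest levels on wild-type tumors 82 (3.55) and 9 (5.08). Wild-type tumors 5, 9 and 65 and knockout tumor 12 lay on slide 4, which held no other tumor, and wild-type tumor 82 lay on slide 5. The 75th percentile of the signal was 584.2, 740.5 and 845.1 on wild-type tumors 9, 82 and 65, the 3 lowest of the tumor arrays, and 1392.2 and 1320.1 on wild-type tumor 5 and knockout tumor 12. Wild-type tumor 5 had 76.34% of spots well above background, against at most 64.15% on any other array. It also had 483 outlier spots, against at most 175 elsewhere. Under quantile scaling, tried after seeing the data, Car9 kept the same order on all 16 tumors, with 2.85 on wild-type tumor 9 and -0.14 on wild-type tumor 68. Slc2a1 stayed highest on wild-type tumor 9 (5.18), while wild-type tumors 5 (4.54) and 65 (4.44) changed places. Ankrd37 and Ero1l kept their highest tumor, with changes of order among others. Single tumors were not examined under this scaling for the remaining members. For Car9 and Slc2a1 the 5 highest tumors were the 4 of slide 4 and wild-type tumor 82. Whether the slide had a part in these levels was not tested.

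Pairs of genes were compared across the arrays of 1 tissue, with 7 pairs in each of 2 tissues and p-values from 100000 permutations adjusted over the 14 relations. In tumor Pgk1 and Bnip3 rose and fell together (r = 0.90, adjusted permutation p = 9.33e-05; rho = 0.82, adjusted permutation p = 0.00201; 15 arrays), with r = 0.78 without the 2 arrays farthest from the median of Pgk1. Car9 and Ndrg1 did so too (r = 0.89, adjusted permutation p = 9.33e-05; rho = 0.82, adjusted permutation p = 0.00182; 16 arrays), with r = 0.87 without 2 arrays. Vegfa and Adm gave r = 0.75 (adjusted permutation p = 0.00283) and rho = 0.74 (adjusted permutation p = 0.00668), and r = 0.67 without 2 arrays. Slc2a1 and Slc16a3 gave r = 0.69 (adjusted permutation p = 0.00672) and rho = 0.58 (adjusted permutation p = 0.0587), and did not pass without wild-type tumors 9 and 82 (r = 0.53, adjusted permutation p = 0.149). Within the arrays of the 2 scan days r was 0.67 and 0.92 for Pgk1 and Bnip3, 0.61 and 0.89 for Car9 and Ndrg1, 0.35 and 0.93 for Vegfa and Adm, and 0.62 and 0.61 for Slc2a1 and Slc16a3. Wild-type tumors 9, 65 and 82 were all scanned on day 2, the day given last. All genes of these pairs are members of 1 chosen set, and the arrays share their scaling.

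**Figure D5:**
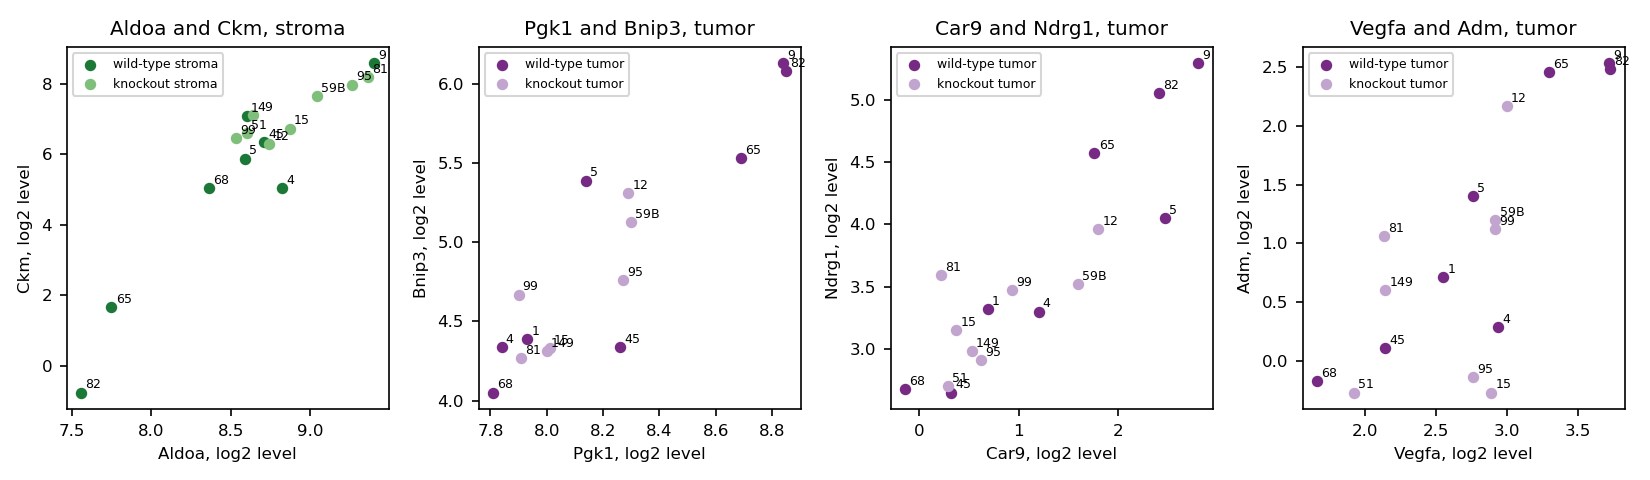
Log2 levels of 4 gene pairs on single arrays (points, numbered as in the sample titles; dark wild-type and light knockout hosts), Aldoa with the muscle gene Ckm in 16 stroma arrays and Pgk1 with Bnip3, Car9 with Ndrg1 and Vegfa with Adm in tumor. Ckm climbs with Aldoa from -0.77 in wild-type stroma 82 to 8.58 in wild-type stroma 9, and in the 3 tumor panels wild-type tumors 9, 65 and 82 lie toward the upper right.

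In stroma the same member pairs gave no relation that passed: r was 0.42 for Pgk1 and Bnip3, 0.40 for Slc2a1 and Slc16a3, -0.05 for Vegfa and Adm and -0.45 for Car9 and Ndrg1 (adjusted permutation p of 0.143, 0.158, 0.842 and 0.128; rho of 0.20, 0.31, -0.02 and -0.48, adjusted permutation p of 0.53, 0.317, 0.942 and 0.127; 16 arrays). Whether the correlations differ between the tissues was not tested. Aldoa instead followed Ckm, the creatine kinase of muscle (r = 0.92, adjusted permutation p = 9.33e-05; rho = 0.78, adjusted permutation p = 0.00201), also without wild-type stroma 65 and 82 (r = 0.80) and within the scan days (0.84 and 0.95). Pgk1 did not follow Ckm in stroma (r = 0.18, adjusted permutation p = 0.53; rho = 0.34, adjusted permutation p = 0.306) or in tumor (r = -0.52, adjusted permutation p = 0.0851; rho = -0.55, adjusted permutation p = 0.0855). In tumor Aldoa and Ckm gave r = -0.10 (adjusted permutation p = 0.773) and rho = -0.10 (adjusted permutation p = 0.788). Ldha and Mki67, a marker of dividing cells, gave r = -0.69 in stroma (adjusted permutation p = 0.0077) but rho = -0.40 (adjusted permutation p = 0.224), and r = -0.32 without wild-type stroma 9 and knockout stroma 81, so that the relation rested on those arrays. Within the scan days it was 0.36 and -0.86. In tumor the same pair gave r = -0.54 (adjusted permutation p = 0.0599) and rho = -0.31 (adjusted permutation p = 0.317).

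Wild-type stroma 9 stood apart from the other stroma arrays in both directions. It had the highest stroma level of 13 members and the lowest of 8. Gapdh was at 9.06 there and at most 8.91 on the other stroma arrays, and Tpi1, Gpi1, Ldha, Bnip3, Egln1 and Vegfa were also at their highest, while Pgam1 (1.94), Eno1 (3.89), Pfkl (-1.76) and Hk1 (1.67) were at their lowest. The same array had the highest level of Ckm (8.58) and the lowest of Mki67 (-4.39) of the 16 stroma arrays, and its 75th percentile was 776. At the opposite end, wild-type stroma 82 had Ckm at -0.77 and Mki67 at 4.68, with Pgam1 at 6.19, Pfkl at 2.12 and Eno1 at 6.96. The part of muscle, of dividing cells and of the scaling in these levels was not tested.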

How the data were processed

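Cy3-labelled RNA of 32 samples was measured on one-colour arrays, read per the file headers with Agilent Feature Extraction 10.7.3.1. The deposited files hold scanner intensity per spot; the background-subtracted processed signal was used. The authors' deposited table of log2 values was set against log2 processed signal centred per probe within each tissue and differed by at most 0.05 for 99.8% of stroma and 99.3% of tumor values, after 1 constant per array (column medians -0.315 to 0.563), so it served only as an alternative within a tissue.

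Each array was scaled to the 75th percentile of its non-control spots, outlier spots were left out, spots of a probe averaged, and a gene took its brightest probe. Genes well above background on at least 8 arrays entered limma 3.58.1 (R 4.3.3, statmod 1.5.0) with tissue, genotype and sex, and p-values were adjusted by Benjamini-Hochberg over all genes; genotype was fitted within each tissue, the interaction over all arrays. Numbers in the titles were not used to pair samples. Probes were matched to symbols by RefSeq identifier. Members named for genotype and interaction are the 3 with the smallest p in each direction. Members, lists, pairs and rules were chosen with earlier results of these data known. Correlations used scipy 1.17.1 (Python 3.11.15) with 100000 permutations. The fits were tested on simulated data. The arrays' files name the mm9 build, promoters are of GRCm38.p6, and no array coordinates were used. Alternatives were other scalings, filters, probes, variance models, blocks for slide and replicate number, and leaving out arrays.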

Additional observations from a re-analysis of the deposited data

Results flagged for a closer look

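Within groups of 8 arrays, 132 sets of values were examined for a highest or lowest array far from the other 7, and 11 stood out by Dixon's criterion; chance alone picks about 1 set in 20. Of these, 8 belong to wild-type stroma 9. It was far above the other wild-type stroma arrays for Gpi1 (8.18, others 6.25 to 7.12), Tpi1 (7.49, others 5.24 to 6.08), Gapdh (9.06, others 7.48 to 8.14), Pkm (7.57, others 6.11 to 6.73), Ldha (8.54, others 7.32 to 7.60) and Egln1 (6.09, others 2.93 to 4.34). It was far below them for Pfkp (-0.46, others 1.05 to 2.11) and Aldoc (-2.29, others -0.54 to 0.97). The same array went against its sex label. Its 75th percentile, by which these levels were scaled, was 776, against 926.3 to 1540 on the other wild-type stroma arrays. Whether the scaling had a part in these flags was not tested.

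Egln3 was low on wild-type stroma 4 (-1.51, others 0.89 to 2.95). Ndrg1 was low on knockout stroma 59B (3.66, others 4.06 to 4.24), a gap that stands out because the other 7 arrays lay close together. Slc16a3 was high on knockout tumor 59B (6.64, others 6.01 to 6.30).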

How the results depend on the processing

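The count of members that differed between stroma and tumor was 26 (5 higher) and stayed between 25 and 29 over all alternatives. With normexp and quantile scaling it was 29 (9 higher) and with quantile scaling 28 (8 higher); in knockout hosts normexp gave 10 higher and 16 lower, against 7 and 15. Of all genes, both scalings called 63.7%, and normexp called 59.6% in knockout hosts. Over all alternatives the share of all genes called ran from 37.7% (no filter) to 71.9% (array weights). Leaving out single arrays gave 25 to 27 members, 16 to 21 in wild-type hosts and 21 to 27 in knockout hosts. The share of all genes called then ran from 61.2% to 63.7%, from 24.1% to 40.4% in wild-type hosts and from 57% to 62.2% in knockout hosts. Scaling by bright probes moved the median of all genes in knockout hosts from -0.03 to 0.14.

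For knockout against wild type in stroma, 0 members became 28 with array weights (71.6% of all genes), 9 with all arrays in 1 fit (16.1%) and 13 without the arrays against the sex label (23.8%), and leaving out single arrays gave 0 to 18. For the interaction, 0 became 25 with array weights (52.5% of all genes) and 8 without the arrays against the sex label (8.39%), and single arrays gave 0 to 12. The cause was not tested. In tumor the count was 0 in each alternative run.

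Some differences changed sign. Ldha between the tissues went from -0.03 to 0.15 (normexp and quantile), 0.16 (quantile), 0.09 (bright probes), 0.04 (without wild-type stroma 65 and 82) and 0.04 (without knockout stroma 99), with -0.10 to 0.04 over the arrays left out singly. Bnip3l went from -0.09 to 0.02 (bright probes) and 0.01 (without wild-type stroma 65 and 82). With the mean of all probes Pkm went to 0.12, and in tumor between genotypes Pfkfb3 went to -0.14 and Pfkfb4 to -0.32. Without the 2 farthest arrays r turned to -0.14 (Pgk1 and Bnip3, stroma), -0.09 (Pgk1 and Ckm, stroma) and 0.08 (Aldoa and Ckm, tumor).

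Replicate number as a block gave 26 members as a random block and 25 as a fixed block for stroma against tumor, and 0 for the interaction. The labels do not say that a number marks 1 animal, and the numbers were not used as pairs: over 15 numbers shared by both tissues the deviations correlated from -0.12 to 0.36, above 0 for 14 and over 0.1 for 7. As a hint from the data, 4 correlated best with their own number, and stroma and tumor 95 and 99 both went against the sex label.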
